A study of Rattus norvegicus with 14 samples.

Results

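The dual oxidase genes Duox1 and Duox2 and the genes of their maturation factors, Duoxa1 and Duoxa2, were examined in RNA-seq libraries of a rat thyroid cell line. The 4 genes were taken by name, as the genes of thyroid hydrogen peroxide production, with earlier results of these data known. They made up 4 of the 16816 rows of the count table, of which 13369 had a count in any library, and all 4 genes passed the filter on low counts in every comparison. The cells were PCCL3, a line of differentiated rat thyroid follicular cells. PPFP cells carried a stably transfected human PAX8-PPARG fusion protein with a myc tag, and EV cells carried the empty vector. Each line received 1 μM pioglitazone, a PPARG agonist dissolved in DMSO, or DMSO alone for 16 hours, which made 4 groups of 3 libraries, one from each of 3 independent experiments. All groups were grown with thyrotropin, insulin, hydrocortisone, transferrin and serum, so every value was measured under thyrotropin stimulation. Each cell line was a stable transfectant, and whether either was a clone or a pool is not given in the sources used here. The fusion protein therefore cannot be told apart from other differences between the lines, and the errors given are those between libraries of the same 2 lines.

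Dual oxidases are NADPH oxidases of the apical membrane of the thyroid follicular cell. They take electrons from NADPH inside the cell and release hydrogen peroxide on the lumenal side, where it is used to attach iodide to thyroglobulin. DUOX2 is the form that is essential for thyroid hormone synthesis, and loss of DUOX2 or of its factor DUOXA2 causes congenital hypothyroidism. The DUOXA proteins carry the oxidases out of the endoplasmic reticulum and stay with them at the membrane, and calcium bound by the oxidases starts the reaction.

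In the RefSeq annotation of the GRCr8 assembly the 4 genes formed an unbroken run on chromosome 3, in the order Duox2, Duoxa2, Duoxa1, Duox1, with no other protein-coding gene between them. Duox2 and Duoxa2 lay head to head, and so did Duoxa1 and Duox1, so each oxidase gene shared an upstream region with the gene of its own factor. The regions upstream of the annotated starts are shown because the members of these gene pairs are compared throughout. The Duox2 and Duoxa2 sequence ran from the base before the start of Duox2 to the base before Duoxa2 (chr3:129698754-129698937, plus strand, toward Duoxa2), a total of 184 bases. The other sequences were the 250 bases before the start of Duoxa1 (chr3:129714007-129714256, minus strand) and before the start of Duox1 (chr3:129715746-129715995, plus strand). The starts used for Duox2, Duoxa1 and Duox1 all lay inside the annotated spans of these genes, so other starts farther upstream are not covered. Of the bases between the start of Duox2 and Duoxa2 only 51 lay outside both genes, and the start of Duox1 was 1989 bases from that of Duoxa1. All are 5′ to 3′ from RefSeq on GRCr8, and capitals mark the matches to the motifs named below.
Duox2-Duoxa2 interval: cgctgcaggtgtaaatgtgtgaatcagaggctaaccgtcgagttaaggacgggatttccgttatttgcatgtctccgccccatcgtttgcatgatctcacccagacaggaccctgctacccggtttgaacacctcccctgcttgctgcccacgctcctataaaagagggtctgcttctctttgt
Duoxa1 upstream: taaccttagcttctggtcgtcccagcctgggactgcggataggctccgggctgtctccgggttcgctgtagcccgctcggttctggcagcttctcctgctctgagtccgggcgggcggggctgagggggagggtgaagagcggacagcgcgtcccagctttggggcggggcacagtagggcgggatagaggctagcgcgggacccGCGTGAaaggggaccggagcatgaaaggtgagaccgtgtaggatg
Duox1 upstream: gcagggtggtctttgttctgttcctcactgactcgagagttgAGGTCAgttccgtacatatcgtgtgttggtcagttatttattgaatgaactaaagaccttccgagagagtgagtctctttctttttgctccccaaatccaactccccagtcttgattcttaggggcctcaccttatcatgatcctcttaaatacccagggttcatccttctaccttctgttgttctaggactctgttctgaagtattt

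Both strands were searched for AGGTCA, the core that PPARG and other nuclear receptors bind, for its direct repeat AGGTCANAGGTCA, for GCGTGA, taken as a PAX8 core, and for CAAGTG, a core bound by NKX2-1. The interval between Duox2 and Duoxa2 held no match to these letters. The Duoxa1 sequence held GCGTGA from base 206, and the Duox1 sequence held AGGTCA from base 43. Among 33469 upstream windows of 250 bases in the same table, 14.1% held AGGTCA, 5.53% held GCGTGA, 11.7% held CAAGTG and 0.0508% held the repeat, and in windows of 184 bases the shares were 10.6%, 4.29%, 8.63% and 0.0388%. The GC content was 52.7% between Duox2 and Duoxa2, 66.4% upstream of Duoxa1 and 44.0% upstream of Duox1, against a median of 51.2% over the windows of 250 bases. These matches describe letters and not bound sites, and the deposited PPFP peaks were not placed at these genes because their positions are in the rn4 assembly.

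The libraries held between 23.7 M and 35.2 M counted read pairs. Pparg, whose row can also take reads of the transfected fusion gene, was low in the EV libraries, at 1.23 to 1.81 CPM (counts scaled to the effective library size) without pioglitazone and 1.36 to 2.81 CPM with it. The PPFP libraries had 46.7 to 59.8 CPM and 50.7 to 61.2 CPM, so every library matched its labelled cell line. The ranges with and without pioglitazone overlapped in both lines, so Pparg does not check the treatment labels. All 7 follicular cell markers were counted, with summed levels of 10138 to 14081 CPM over the EV libraries, 13249 to 13955 CPM over untreated PPFP libraries and 9810 to 10011 CPM over treated ones. Of the markers of other cell types, 4 of 5 for C cells and 4 of 6 for fibroblasts were at 3 counts or fewer in every library, among them Calca and Chga, and Col1a2 and Dcn. The remaining C cell marker, Ret, had 179 to 264 counts per EV library and 3 to 18 per PPFP library, and the remaining fibroblast markers, Pdgfra and Col1a1, had 517 to 938 and 23 to 96 counts per library. The summed level was 20.4 to 34.5 CPM for fibroblasts, 0.215 to 1.48 CPM for endothelial cells and 0.536 to 1.49 CPM for leukocytes, with Cdh5 and Ptprc at 3 counts or fewer. Of their other markers, Vwf had 6 to 39 counts per library and Cd68 13 to 35, with mean Cd68 levels of 0.529 and 0.549 CPM in EV cells without and with pioglitazone and 0.945 and 1.21 CPM in PPFP cells. The part of these markers in the results was not tested. Replicates 2 and 3 of PPFP cells with pioglitazone were closer to each other than any other pair, with a chi-square per degree of freedom of 1.67 against 17.2 to 109 for the other pairs, and leaving out either of them changed no call of the 4 genes. Whether these 2 libraries came from separate experiments is not known here, so errors that involve this group may be too small.

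Duox2, the oxidase of thyroid hormone synthesis, had 19.3, 16.7 and 22.0 CPM in EV cells without pioglitazone and 19.7, 15.0 and 21.7 CPM in EV cells with it. In PPFP cells it had 93.9, 85.8 and 84.1 CPM without pioglitazone and 185, 176 and 175 CPM with it. The 6 PPFP libraries were all above the 6 EV libraries, and within PPFP cells the groups with and without the drug did not overlap. The means were 19.3 ± 2.63, 18.8 ± 3.46, 87.9 ± 5.22 and 179 ± 5.46 CPM (SD, n = 3 each) in EV, EV with pioglitazone, PPFP and PPFP with pioglitazone, so that only the pair of EV groups was not separated by its spread. The counts behind these values were 468 to 729 per EV library and 1992 to 5270 per PPFP library.

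Duoxa2, the maturation factor of DUOX2, had 17.4, 16.9 and 21.3 CPM in EV cells without pioglitazone and 16.6, 17.6 and 18.7 CPM with it. In PPFP cells its levels were 92.8, 76.0 and 71.8 CPM without the drug and 182, 171 and 162 CPM with it. As for Duox2, the 2 EV groups overlapped and the other groups were separated from each other. Group means were 18.6 ± 2.43, 17.6 ± 1.08, 80.2 ± 11.1 and 172 ± 10.2 CPM (SD, n = 3 each), from 506 to 623 counts per EV library without pioglitazone up to 4592 to 4882 counts per PPFP library with pioglitazone.

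Duoxa1, the maturation factor of DUOX1, was lower in counts, at 6.63, 6.36 and 10.2 CPM in EV cells and 7.67, 5.50 and 9.15 CPM in EV cells with pioglitazone. PPFP cells had 14.4, 11.9 and 12.2 CPM without the drug and 23.7, 21.9 and 21.4 CPM with it. The order of the groups was that of Duox2, with smaller steps, and the highest EV library was below the lowest PPFP library. The means were 7.72 ± 2.13, 7.44 ± 1.84, 12.8 ± 1.37 and 22.3 ± 1.24 CPM (SD, n = 3 each), and the EV groups, which rested on 172 to 297 counts per library, varied by 27.6% and 24.7% of their means.

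Duox1, the other thyroid dual oxidase, had 26.6, 20.9 and 27.9 CPM in EV cells, 24.2, 20.5 and 27.6 CPM in EV cells with pioglitazone, 26.3, 29.8 and 29.0 CPM in PPFP cells and 24.6, 29.3 and 27.7 CPM in PPFP cells with pioglitazone. All 4 groups overlapped. Their means were 25.2 ± 3.73, 24.1 ± 3.55, 28.4 ± 1.82 and 27.2 ± 2.36 CPM (SD, n = 3 each), and no neighbours in this order were separated beyond their spread. By the mean over the 12 libraries Duox1 stood at percentile 51.0 of the genes with a count, Duox2 at 74.6, Duoxa1 at 41.0 and Duoxa2 at 73.4, ranks that do not correct for transcript length. Duox1 and Duox2 are paralogs, and how reads that fit both were counted is not known here.

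**Figure D1:**
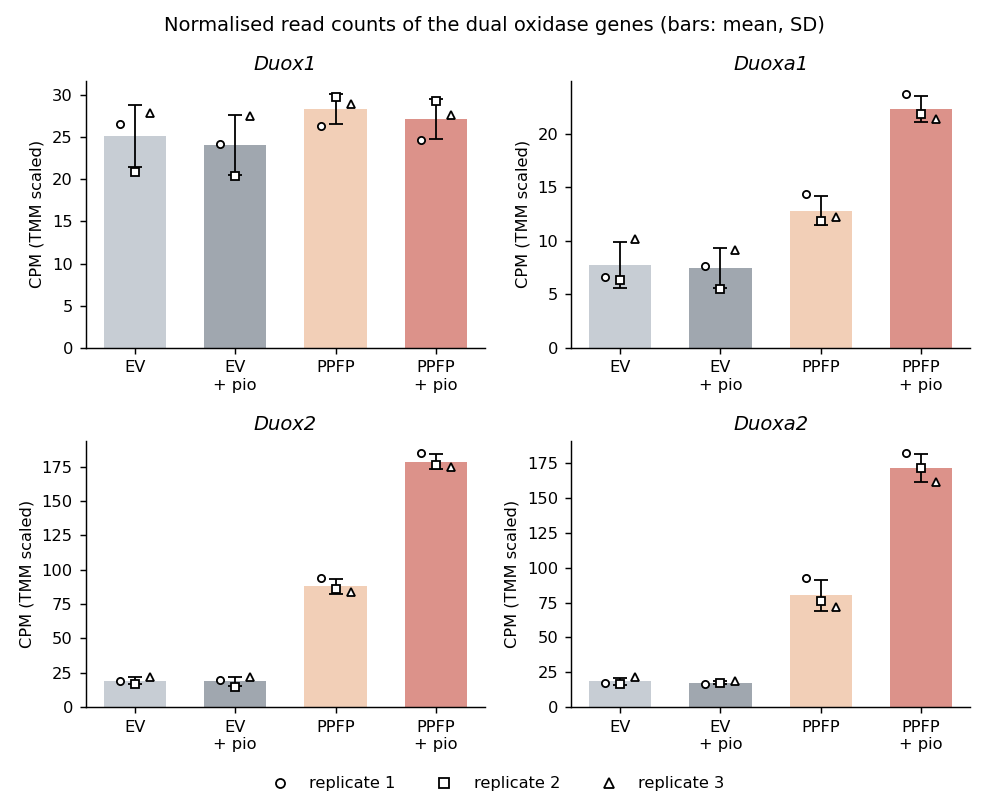
Level of each gene in CPM (vertical axis, from 0, TMM scaled) in the 4 groups; bars are means, error bars SD and symbols the 3 libraries, with pio for pioglitazone. Duox2 and Duoxa2 rise in 2 steps to 179 and 172 CPM in PPFP cells with pioglitazone, Duoxa1 rises by less, and the groups of Duox1 overlap.

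The comparison of PPFP cells with EV cells without pioglitazone asked how the fusion protein alone goes with the expression of these genes. Duox2 was 4.62-fold higher in PPFP cells and Duoxa2 4.39-fold higher, Duoxa1 was 1.69-fold higher, and Duox1 did not pass the test. The log2 fold changes were 2.21 ± 0.11 (SE, adjusted p = 9.8e-06) for Duox2, 2.13 ± 0.13 (adjusted p = 2.1e-05) for Duoxa2 and 0.76 ± 0.19 (adjusted p = 0.015) for Duoxa1, by the quasi-likelihood test of edgeR, adjusted by Benjamini-Hochberg over 10264 genes. That of Duox1 was 0.20 ± 0.12 (adjusted p = 0.24), with a 95% interval of 0.937-fold to 1.40-fold. Thus 3 of the 4 genes had an adjusted p under 0.05, where 45.2% of all genes tested did, and 2 of the 4 also exceeded a 2-fold change, the study's limit for differential expression, where 14.6% of genes did. The PPFP and EV libraries did not overlap for Duox2, Duoxa2 and Duoxa1, as for 56.0% of the genes tested. The call of Duoxa1 rested on replicate 1 of the EV cells, since without it the log2 fold change was 0.67 with an adjusted p of 0.061, the highest of its 14 alternatives, which went down to 0.0013.

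With pioglitazone in both lines Duox2, Duoxa2 and Duoxa1 again passed, and whether the fold differences changed with the drug was tested as an interaction. PPFP cells had 9.93-fold more Duoxa2, 9.69-fold more Duox2 and 3.06-fold more Duoxa1. The log2 fold changes were 3.31 ± 0.083 (adjusted p = 1.1e-06), 3.28 ± 0.14 (adjusted p = 5.5e-06) and 1.61 ± 0.18 (adjusted p = 0.00033), by the same test. Duox1 was at 0.21 ± 0.13 (adjusted p = 0.23), with an interval of 0.930-fold to 1.43-fold. All 3 genes that passed also exceeded a 2-fold change, and their groups did not overlap. Over all 10291 genes tested, 52.7% passed, 19.7% passed with a change above 2-fold and 62.9% had groups without overlap.

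The comparison of PPFP cells with and without pioglitazone asked what the ligand adds when the fusion protein is present. Duoxa2 rose 2.14-fold, Duox2 2.03-fold and Duoxa1 1.74-fold, while Duox1 was at 0.961-fold. The log2 fold changes were 1.10 ± 0.099 (adjusted p = 0.0014), 1.02 ± 0.055 (adjusted p = 0.00037) and 0.80 ± 0.093 (adjusted p = 0.0032), and for Duox1 the value was -0.057 ± 0.095 (adjusted p = 0.75), with an interval of 0.820-fold to 1.13-fold. Here 3 of the 4 genes passed against 14.8% of all genes, 2 of the 4 also exceeded 2-fold against 2.42%, and 3 had groups without overlap against 34.1%. With the replicate number as a block the same 3 of the 4 passed, and 5198 of the 10064 genes tested did, in place of 1486, so the share of all genes depends on the pairing. Leaving out 1 library at a time gave 632 to 1729 passing genes and 160 to 296 above 2-fold in place of 244, both lowest without replicate 3 of untreated PPFP cells. Duox2 and Duoxa2 were close to the 2-fold limit: with scaling by library size alone Duox2 was at 0.98 on the log2 scale, and of the 2 only Duoxa2 was left above the limit, as also without replicate 2 or 3 of PPFP cells without pioglitazone or replicate 1 of those with it. All 3 genes kept an adjusted p under 0.05 in these fits.

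In EV cells pioglitazone made no detectable difference to any of the 4 genes. The log2 fold changes were -0.067 for Duox1, -0.046 for Duox2, -0.056 for Duoxa1 and -0.076 for Duoxa2, each with an adjusted p of 1.00, and all groups overlapped. The 95% intervals were 0.746-fold to 1.22-fold for Duox1, 0.740-fold to 1.27-fold for Duox2, 0.637-fold to 1.45-fold for Duoxa1 and 0.785-fold to 1.15-fold for Duoxa2, so a change of 2-fold lay outside each. None of the 4 had an unadjusted p under 0.05 in edgeR's test. That test leaves out the deviations shared by same-numbered EV libraries. With the replicate number as a block the biological coefficient of variation was 0.0372 in place of 0.156, and none of the 4 genes passed there either. Of all genes, 0% passed, as also with the exact test of edgeR and with DESeq2, 0% passed with a change above 2-fold, 16 had an unadjusted p under 0.05 and 1.46% had groups without overlap.

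The difference between the pioglitazone responses of the cell lines was tested as an interaction over the 12 libraries. Duoxa2 responded 2.24-fold more in PPFP cells than in EV cells (log2 difference 1.16 ± 0.15, adjusted p = 0.0022) and Duox2 2.08-fold more (1.06 ± 0.17, adjusted p = 0.0082). For Duoxa1 the difference was 0.85 ± 0.27 with an adjusted p of 0.16 and an unadjusted p of 0.010. The replicate numbers went with shared deviations between treated and untreated libraries of the same line, and with the number as a block within each line the difference for Duoxa1 was 0.84 with an adjusted p of 9.6e-05, the lowest of its 19 alternatives, which went up to 0.35 and of which the other 18 did not pass. Duox1 was at -0.0036 ± 0.18 (adjusted p = 1.00), with an interval of 0.760-fold to 1.31-fold. Of all genes tested 2.64% passed, and 0.925% passed with a difference above 2-fold, which was the case for 2 of the 4 genes. With the block within each line 3 of the 4 genes passed, but so did 3594 of 10482 genes, in place of 277 without it, and 269 in place of 97 passed with a difference above 2-fold. Single libraries left out gave 124 to 308 passing genes and 52 to 105 above 2-fold, again lowest without replicate 3 of untreated PPFP cells.

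**Figure D2:**
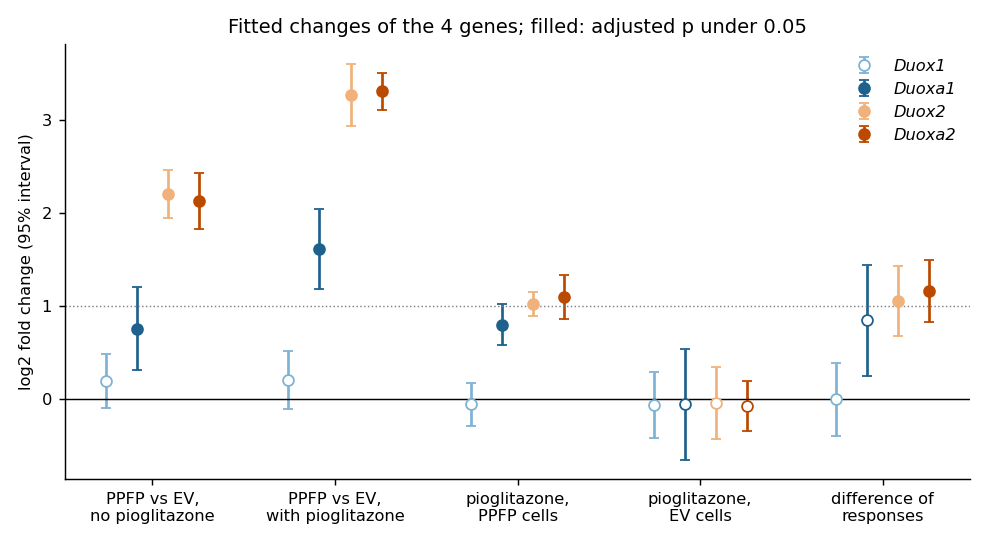
Fitted log2 fold change (vertical axis) of the 4 genes in the 4 comparisons and the difference of the pioglitazone responses, with 95% intervals; the dotted line is the 2-fold limit. Duox2 and Duoxa2 lie close together at each position, near 2 and above 3 between the lines and near 1 for pioglitazone in PPFP cells, while Duox1 stays near 0.

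Because each library holds all 4 genes, the balance between the forms needed no scaling between libraries. Duox2 made up 43.5 ± 1.30% of the dual oxidase counts in EV cells, 43.7 ± 1.34% in EV cells with pioglitazone, 75.6 ± 2.19% in PPFP cells and 86.8 ± 1.30% in PPFP cells with pioglitazone (SD, n = 3 each). The counts of the maturation factors were mostly Duoxa2 in all groups, with shares of 70.9 ± 2.79%, 70.6 ± 4.89%, 86.2 ± 0.61% and 88.5 ± 0.19% in the same order. These shares are of counts and not of transcripts, since the genes differ in length. The ratio of Duox2 to Duoxa2 counts was 1.04 ± 0.063, 1.07 ± 0.19, 1.10 ± 0.082 and 1.04 ± 0.034, so the oxidase and its own factor kept nearly the same ratio while both differed several-fold between groups. The ratio of Duox1 to Duoxa1 counts was 3.35 ± 0.64, 3.30 ± 0.38, 2.24 ± 0.36 and 1.22 ± 0.16, so in that pair the factor rose and the oxidase did not pass.

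The log2 ratios were compared with a two-sided exact permutation test, which with 3 libraries against 3 cannot give a p below 0.1. For Duox1 to Duox2 the difference was -2.01 between PPFP and EV cells without pioglitazone, -3.08 with it, and -1.09 for pioglitazone in PPFP cells. For Duoxa1 to Duoxa2 the differences were -1.35, -1.67 and -0.30, and for Duox1 to Duoxa1 they were -0.58, -1.43 and -0.87. In these 9 tests the groups did not overlap and the exact p was 0.1, or 0.18 after adjustment over the 16 tests of this family. For Duox2 to Duoxa2 the differences were 0.080, -0.019 and -0.082, with overlapping groups and exact p of 0.4, 1 and 0.4. In EV cells the differences for pioglitazone were between -0.012 and 0.016, with exact p from 0.7 to 1.

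**Figure D3:**
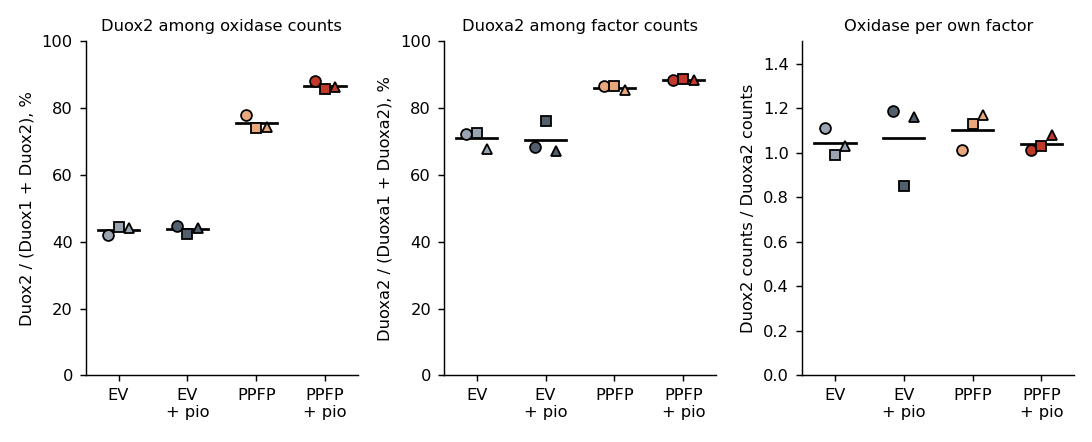
Duox2 as a percentage of dual oxidase counts, Duoxa2 as a percentage of maturation factor counts, and Duox2 counts per Duoxa2 count (vertical axes) in each library (circle, square and triangle for replicates 1, 2 and 3) with group means as lines. The Duox2 share is 43.5% on average in untreated EV libraries and 86.8% in treated PPFP libraries, while the ratio in the right panel stays near 1.

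The genes on either side of the cluster gave a local comparison. Of the 3 annotated protein-coding genes on each side, Sord and Trim69 on the side of Duox2 and Slc28a2 on that of Duox1 had a row, and the other 3 were not analysed here. Sord, which encodes sorbitol dehydrogenase and is the nearest neighbour of Duox2, had 229 ± 21.8 CPM in EV cells, 230.3 ± 25.9 CPM in EV cells with pioglitazone, 172 ± 10.9 CPM in PPFP cells and 234 ± 5.82 CPM in PPFP cells with pioglitazone (SD, n = 3 each). It was lower in PPFP than in EV cells without the drug (log2 fold change -0.39 ± 0.10, adjusted p = 0.016), did not pass with the drug (0.049, adjusted p = 0.69), and rose with pioglitazone in PPFP cells (0.44 ± 0.056, adjusted p = 0.0044). Its difference in response between the lines was 0.43 with an adjusted p of 0.18. Trim69 and Slc28a2 passed in none of the comparisons, and Slc28a2 had a mean of 0.684 to 1.57 CPM in the 4 groups. Its log2 fold change without pioglitazone was -1.20 ± 0.57 (SE), and it lay 29238 bases from the cluster. Shf, the nearest gene on the side of Duox1 at 716 bases, was among those not analysed, so that side gave little to compare. The increase in PPFP cells without pioglitazone was thus found for Duox2, Duoxa2 and Duoxa1 and for none of the 3 counted neighbours, of which Sord changed in the other direction.

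**Figure D4:**
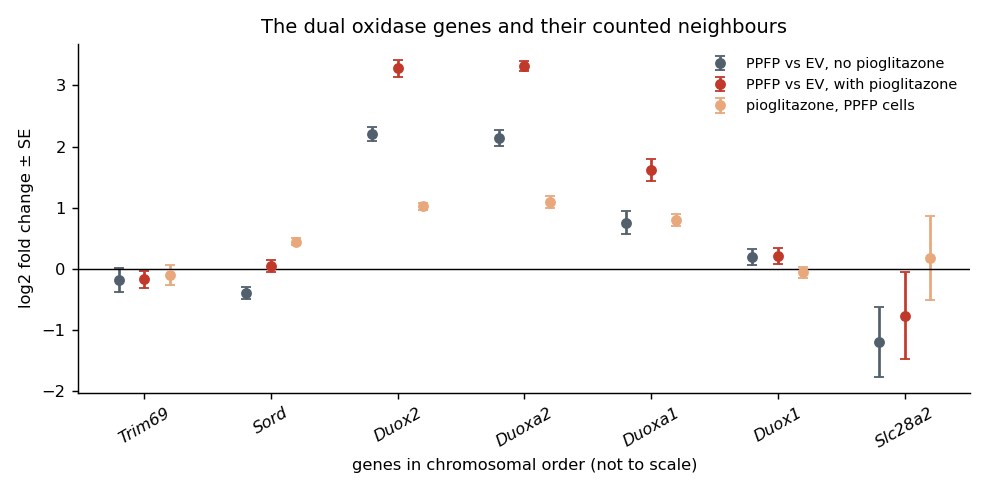
Log2 fold change ± SE (vertical axis) of the 4 genes and their 3 counted neighbours in chromosomal order (horizontal axis, not to scale) in 3 comparisons. Duox2, Duoxa2 and Duoxa1 are raised next to each other, Duox1 is near 0, and Sord is below 0 between the lines without pioglitazone and above 0 for pioglitazone in PPFP cells.

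Likeness of pattern was measured as the root mean square difference over the 12 libraries of log2 CPM, each gene centred on its mean, among genes with a mean of at least 1 CPM. Of 9637 other genes the nearest to Duox2 was Duoxa2, and the nearest to Duoxa2 was Duox2, at a distance of 0.129. Next to Duox2 came Itga1, an integrin subunit, at 0.152 and Plk3, a polo-like kinase, at 0.186, and next to Duoxa2 came Plk3 at 0.170 and Itga1 at 0.173. Itga1 had 5.30 and 5.12 CPM in the EV groups and 26.2 and 45.6 CPM in the PPFP groups, and Plk3 had 3.41, 3.19, 14.0 and 32.2 CPM. Duoxa1 was nearest to Ppp2r1b at 0.149, Rad21 at 0.164 and Hsd17b10 at 0.181, all with intermediate rises (Ppp2r1b 46.2, 45.5, 86.2 and 138 CPM). Duox1 was nearest to C2cd3 at 0.0450, Rcan3 at 0.0637 and Cib1 at 0.0714, which varied little, and it was 1.33 away from Duox2. The distances describe libraries that share 2 cell lines and 2 treatments and carry no test.

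Other genes of hydrogen peroxide production and use were counted from 7 lists written by hand. Of the other NADPH oxidases and their subunits, 11 were in the table and 5 could be tested between the lines without pioglitazone: 4 were higher in PPFP cells and 1 did not pass, with a median log2 fold change of 0.96 against 0.0016 over all genes. Ncf4, a cytosolic subunit of the phagocyte oxidase, went from 25.1 ± 4.13 CPM in EV to 134 ± 10.8 CPM in PPFP libraries (log2 fold change 2.44 ± 0.14, adjusted p = 1.6e-05), and Ncf1, another cytosolic subunit, differed by 1.06 (adjusted p = 0.0013). The GTPases Rac2 and Rac1, which join that complex, differed by 0.96 (adjusted p = 0.0056) and 0.35 (adjusted p = 0.012). Cybb, the catalytic subunit of the phagocyte oxidase, had at most 2 counts in any library, and Nox4 and Cyba were listed at 0 in all libraries. Gnas, which every cell uses, was listed at 0 as well, so a 0 in this table does not show that a gene was not expressed, and how these rows came to be at 0 was not tested. Unlike Duox2, Duoxa2 and Duoxa1, no gene of this list rose with pioglitazone in PPFP cells and 3 of 6 fell, with Ncf1 at -0.97 (adjusted p = 0.0015), Rac2 at -0.78 (adjusted p = 0.029) and Ncf4 at -0.59 (adjusted p = 0.012).

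Of 14 tested enzymes that use or remove hydrogen peroxide, 7 were higher and 2 lower in PPFP cells without pioglitazone and 5 did not pass, with a median of 0.32. Among the removers, the glutathione peroxidase Gpx2 was higher by 1.73 (adjusted p = 0.00081), the mitochondrial peroxiredoxin Prdx3 by 0.76 (adjusted p = 0.00046) and Gpx4, which reduces lipid peroxides, by 0.68 (adjusted p = 0.00084). With pioglitazone in PPFP cells 3 of 14 rose, 3 fell and 8 did not pass. Lactoperoxidase (Lpo), among those that rose, reached this test only through the treated PPFP libraries. Gpx2 fell by 1.23 on the log2 scale (adjusted p = 0.0026) and Prdx3 rose by 0.26 (adjusted p = 0.036). Catalase (Cat), named after its values were seen, rose from 367 ± 7.57 to 582 ± 17.8 CPM (0.67 ± 0.051, adjusted p = 0.00075), and its response differed between the lines by 0.65 (adjusted p = 0.0028). Of the 15 genes of this list tested for such a difference, it alone passed, against 2.64% of all genes. Lpo was among the 15, again only through the treated PPFP libraries.

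Dual oxidases need NADPH, and all 7 tested genes of its supply passed between the lines without pioglitazone, 5 higher and 2 lower in PPFP cells, with a median of 0.70. Malic enzyme Me1 was higher by 1.02 (adjusted p = 0.0026) and Mthfd1, of folate metabolism, by 0.92 (adjusted p = 0.0021), while H6pd, an NADPH-producing enzyme of the endoplasmic reticulum, was lower (-1.21, adjusted p = 8.0e-05). With pioglitazone in PPFP cells 1 of 7 rose, 2 fell and 4 did not pass, and the 3 genes named here were among those that did not pass.

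The genes of iodide handling and hormone synthesis, the steps that the peroxide serves, went mostly the other way. Of 9 tested, 7 were lower in PPFP cells without pioglitazone, 1 was higher and 1 did not pass, with a median of -0.82, where Slc26a7 and Slc26a4 reached the test only through the line in which they were high. Slc5a5, the sodium-iodide symporter, went from 1129 ± 51.6 CPM in EV to 336 ± 29.9 CPM in PPFP libraries (-1.73 ± 0.096, adjusted p = 1.4e-05). The anion transporter Slc26a7 had 305 to 617 counts per EV library and 3 to 5 counts per PPFP library without pioglitazone, and the chloride channel Ano1 differed by -0.82 (adjusted p = 0.00029). Pioglitazone in PPFP cells lowered 6 of 8 and raised 1, with a median of -0.85, and Slc5a5 was at 177 ± 23.7 CPM there.

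Of 16 tested genes of thyrotropin, cAMP and calcium signalling, which control dual oxidase activity, 3 were higher and 4 lower in PPFP cells without pioglitazone and 9 did not pass, with a median of 0.092. Tshr, the thyrotropin receptor, was higher by 0.66 (adjusted p = 0.0014) and the calcium release channel Itpr1 by 0.93 (adjusted p = 0.00031), whereas its paralog Itpr2 differed by -0.80 (adjusted p = 0.0013) and the phospholipase Plcb3 by -0.66 (adjusted p = 0.0026). Gnas, listed at 0 in all libraries, could not be tested. Treatment of PPFP cells left 11 that did not pass, beside 1 that rose and 4 that fell, with Itpr2 at -0.82 (adjusted p = 0.0025).

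Of the thyroid transcription factors, none was higher in PPFP cells. Foxe1 went from 877 ± 16.3 CPM in EV to 131 ± 16.6 CPM in PPFP libraries (-2.72 ± 0.11, adjusted p = 4.0e-06), Hhex differed by -0.99 (adjusted p = 0.00028) and Nkx2-1 by -0.58 (adjusted p = 0.0026), while Pax8 did not pass (-0.081, adjusted p = 0.47). Between treated and untreated PPFP cells Pax8 differed by -0.33 (adjusted p = 0.0048) and Nkx2-1 by -0.34 (adjusted p = 0.039), and the other 2 did not pass. In airway epithelium interferon-gamma is known to raise DUOX2 and interleukin-4 to raise DUOX1. Of 8 tested genes of their pathways, 5 were higher and 1 lower without pioglitazone, among them Stat6 by 0.59 (adjusted p = 0.00037) and Il4ra by 0.44 (adjusted p = 0.0099), with Ifngr1 at -0.45 (adjusted p = 0.0027). With pioglitazone in PPFP cells 1 of 8 fell and 7 did not pass. In EV cells no gene of the 7 lists passed in the pioglitazone comparison. The counts of all lists stand beside 45.2% of all genes passing between the lines without pioglitazone and 14.8% for pioglitazone in PPFP cells.

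**Figure D5:**
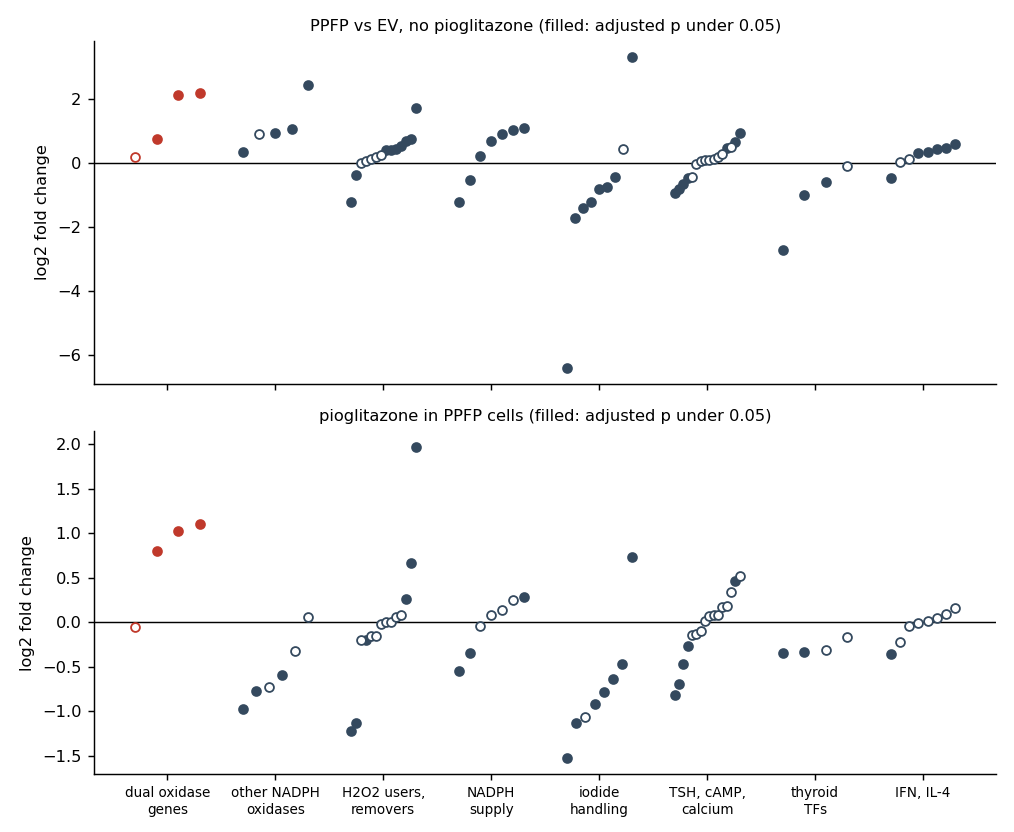
Log2 fold change (vertical axes) of each tested gene of the dual oxidase group and of the 7 lists (horizontal axis) in PPFP versus EV cells without pioglitazone (top) and for pioglitazone in PPFP cells (bottom); filled points had an adjusted p under 0.05. Duox2 and Duoxa2 are above 2 in the top panel and above 1 in the bottom panel, and most iodide handling genes are below 0 in both.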

How the data were processed

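RNA was sequenced from 12 libraries of PCCL3 cells. The authors aligned reads to rn4 with TopHat2 (2.0.11) and counted them per gene with HTSeq (0.6.1p1) in intersection-strict mode, and the deposited table holds these raw counts, neither normalised nor pooled. The library kit did not mark strand, so reads in bases shared by neighbouring genes cannot be assigned to one of them. In R 4.3.3, low genes were removed with filterByExpr and the rest were scaled by TMM. The quasi-likelihood test of edgeR 4.0.16 was run on the 6 libraries of each comparison, or on 12 for the interaction. P values were adjusted by Benjamini-Hochberg over all genes tested, and all adjusted p values are from this test. Genes with an adjusted p under 0.05 passed, and those also above 2-fold were differentially expressed. CPM used TMM factors of 0.926 to 1.05. Log2 ratios had 0.5 added to each count. The biological coefficient of variation was 0.126 to 0.156. The method was tested on simulated data. DESeq2 1.42.0, other scalings and filters, a replicate block and leaving out each library were alternatives.

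The members and lists were chosen with earlier results of these data known, and Duox2 also belongs to a list that the study drew from these libraries, so its direction there is not independent evidence. Named were the 4 members, up to 4 genes per list with the smallest adjusted p in PPFP versus EV cells without pioglitazone, 3 neighbours on each side and the 3 nearest genes in pattern. Some genes that this rule selects are not reported here. The study's methods give 3 independent experiments, each sequenced together, without saying that the replicate numbers mark them. Same-numbered libraries had correlated deviations from the group means with and without pioglitazone (0.621, 0.341 and 0.288 in PPFP cells and 0.428, 0.630 and 0.681 in EV cells), and not consistently between the lines (-0.305 to 0.249). Sequences are from RefSeq tables (GRCr8), in which 3 of the 4 genes had an upstream entry. The ChIP-seq peak lists were not used here, because their rn4 positions could not be matched to gene positions of that build.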

Additional observations from a re-analysis of the deposited data

Results flagged for a closer look

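The responses of Duox2 and Duoxa2 to pioglitazone differed between the cell lines by a test of the difference itself. The log2 response was larger in PPFP than in EV cells by 1.06 for Duox2 and by 1.16 for Duoxa2.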

How the results depend on the processing

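Scaling by library size alone moved the median log2 fold change of all genes to -0.12 between the lines with pioglitazone, to -0.080 without it and to -0.036 for pioglitazone in PPFP cells, and the 4 genes moved with it. It left 1 of the 4 genes, in place of 2, differentially expressed with pioglitazone in PPFP cells, and gave Duox2 a mean of 171 CPM in treated PPFP cells. Without single libraries that number was 1 to 2, as it was for the interaction, where 1 was left without replicate 3 of EV cells without pioglitazone or replicate 2 of EV cells with it. Without replicate 1 of EV cells without pioglitazone Duoxa1 was at 0.67 between the lines (range over libraries left out 0.64 to 0.98). The interaction of Duox1, near 0, changed sign with DESeq2 (0.0043), RLE factors (0.0041) and no filter (0.0036), and lay between -0.099 and 0.11 with libraries left out. Its pioglitazone change in PPFP cells then lay between -0.13 and 0.0023. In EV cells the ranges without single libraries crossed 0 for Duox1 (-0.18 to 0.033), Duox2 (-0.16 to 0.091), Duoxa1 (-0.23 to 0.19) and Duoxa2 (-0.14 to 0.035). Ratios in EV cells ranged from -0.056 to 0.031 for Duox1 to Duox2, -0.10 to 0.22 for Duoxa1 to Duoxa2, -0.15 to 0.13 for Duox1 to Duoxa1 and -0.070 to 0.17 for Duox2 to Duoxa2, which ranged from -0.17 to 0.067 between the lines with pioglitazone. The cause of these changes was not tested.

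With the replicate block Duox2 rose by 1.03 and Duoxa2 by 1.11 with pioglitazone in PPFP cells. Blocking within each line brought Duoxa1 past the threshold in the interaction (0.84), and the block changed no other call of the 4 genes. Over all genes, the block gave 5198 genes with an adjusted p under 0.05 for pioglitazone in PPFP cells, 1 in place of 0 in EV cells, and, within each line, 3594 for the interaction, 269 of them above 2-fold. DESeq2 gave 601 for the interaction, and a minimum of 10 counts in every library gave 983 in place of 1496 differentially expressed genes between the lines without pioglitazone. Leaving out libraries gave 632 to 1729 passing genes and 160 to 296 above 2-fold for pioglitazone in PPFP cells, and 124 to 308 and 52 to 105 for the interaction. For pioglitazone in PPFP cells, the passing genes fell by over 1.5 times without PPFP replicate 2 (755) or 3 (632) without pioglitazone or replicate 2 (655) or 3 (746) with it, and those above 2-fold without untreated replicate 3 (160). For the interaction the same 4 libraries gave 147, 124, 147 and 162 passing genes and 58, 52, 59 and 68 above 2-fold, and treated EV replicate 1 gave 158 and 64. The peak alternatives could not be run.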

Other observations

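Among the genes of the lists, 2 low ones that the naming rule did not select were picked after their values were seen. Lpo, lactoperoxidase, a haem peroxidase that uses hydrogen peroxide, had at most 1 count in any EV library, 7 to 12 counts per PPFP library without pioglitazone and 25 to 45 with it. It passed the filter on low counts only through treated PPFP libraries, so no test is given, though the list counts above include it. Slc26a4, the apical anion exchanger pendrin, had, without pioglitazone, 2 to 7 counts per EV library and 30 to 46 per PPFP library, and passed the filter there only through the PPFP libraries. Treated PPFP libraries had 12 to 28 counts, a difference that did not pass (-1.06, adjusted p = 0.12).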
